A study of Mus musculus with 3 samples.

Results

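Of the 39807 NFI sites that the authors called in wild-type mouse embryonic fibroblasts (MEF), 807 (2.03%, 1.89% to 2.17%) had 5 or more tags of input DNA in the 300 bp around their centre. The members were chosen by these input tags, and the list of sites itself was chosen by the wild-type ChIP. A tag was a read with a single best place in the genome, put at its 5′ end, and reads with the same position and strand counted once. Each site is a deposited interval of 16 bp. The 807 sites fell into 709 loci when members up to 10 kb apart were chained, and 689 loci held 1 member. Another 7 loci held 3 or more members each and 92 in all, so members of these loci share their surroundings and are not independent.

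Tags came from 3 libraries: NFI ChIP in wild-type MEF, NFI ChIP in NFI-C knock-out MEF, and input DNA of wild-type MEF, which is sonicated chromatin sequenced without an antibody. All cells were C57BL/6 fibroblasts from embryos of 14.5 days, and the knock-out was made by insertional mutagenesis. Both ChIP libraries used the antibody NFI (H300), which was raised against the NFI group rather than NFI-C alone, and no input of knock-out cells was used here. Each condition had 1 library, so no difference between conditions was tested and all intervals (95%) cover counting error only. The description line of the knock-out library names wild-type cells, and its title was followed. DNA tags carry no measure of expression, so the identity of the cells was not checked, and tags at Nfic do not check the knock-out.

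NFI proteins bind DNA as dimers, and their consensus is a palindrome of a short motif and its reverse complement. Input DNA is sequenced to show how evenly the genome is cut, recovered and mapped before any antibody is used. CpG islands are stretches rich in G, C and CpG dinucleotides that cover the start sites of many broadly expressed genes, and their nucleosomes usually carry H3K4me3, the methylation mark of active promoters. Satellite and ribosomal RNA repeats occur in many more copies in the cell than in the assembled sequence, so that reads of all copies can fall on the few that were assembled.

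The sequences of 3 members show the most frequent kind of site and the site with the most input tags (mm9, plus strand, CpG dinucleotides in capitals). Ctps at chr4:120242278-120242577, in an intron, and 9130023H24Rik at chr7:135381768-135382067 had the most input tags among promoter members whose window holds no annotated UTR. The other window, chr17:39981251-39981400, belongs to a site 4446 bp from the start of the non-coding gene AY036118. The RefSeq table, which is for GRCm38 and was used for neighbours only, lists the pseudogene Rn18s-rs5 next to that gene.
Ctps: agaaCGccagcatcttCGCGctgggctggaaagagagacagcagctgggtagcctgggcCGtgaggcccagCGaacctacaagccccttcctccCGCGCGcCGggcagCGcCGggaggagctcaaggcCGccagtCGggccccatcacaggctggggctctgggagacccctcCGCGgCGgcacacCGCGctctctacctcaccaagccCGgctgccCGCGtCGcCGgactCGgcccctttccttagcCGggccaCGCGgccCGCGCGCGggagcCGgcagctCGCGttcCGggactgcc
9130023H24Rik: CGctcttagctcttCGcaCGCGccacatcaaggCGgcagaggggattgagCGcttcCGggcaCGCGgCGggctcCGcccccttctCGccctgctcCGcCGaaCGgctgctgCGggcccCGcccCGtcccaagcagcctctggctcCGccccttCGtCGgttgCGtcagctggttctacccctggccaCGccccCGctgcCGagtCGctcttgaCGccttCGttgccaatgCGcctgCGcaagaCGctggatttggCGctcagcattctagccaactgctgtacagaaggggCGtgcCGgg
AY036118 region: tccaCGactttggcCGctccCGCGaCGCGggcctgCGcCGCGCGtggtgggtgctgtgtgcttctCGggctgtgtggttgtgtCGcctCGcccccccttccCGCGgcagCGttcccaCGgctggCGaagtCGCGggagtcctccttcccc
The Ctps window held 35 CpG dinucleotides and 73.3% G and C, the 9130023H24Rik window 34 and 69.0%. In the shorter window on chromosome 17 there were 20 CpG dinucleotides and 72.7% G and C.

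The repeat-like members with the most input tags are shown next, with capitals for bases that lie in a stretch of 24 bases found more than once in the genome (mm9, plus strand). One is near Gm10801 at chr2:98502759-98503058 and the other at chr12:3109793-3110092.
Gm10801: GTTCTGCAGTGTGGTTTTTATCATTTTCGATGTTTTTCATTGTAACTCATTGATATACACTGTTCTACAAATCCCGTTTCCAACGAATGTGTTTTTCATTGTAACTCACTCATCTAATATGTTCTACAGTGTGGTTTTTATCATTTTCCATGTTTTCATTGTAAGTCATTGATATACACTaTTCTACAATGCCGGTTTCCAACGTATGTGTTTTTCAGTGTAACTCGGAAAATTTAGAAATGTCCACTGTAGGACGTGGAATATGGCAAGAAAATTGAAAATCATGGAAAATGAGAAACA
Chromosome 12: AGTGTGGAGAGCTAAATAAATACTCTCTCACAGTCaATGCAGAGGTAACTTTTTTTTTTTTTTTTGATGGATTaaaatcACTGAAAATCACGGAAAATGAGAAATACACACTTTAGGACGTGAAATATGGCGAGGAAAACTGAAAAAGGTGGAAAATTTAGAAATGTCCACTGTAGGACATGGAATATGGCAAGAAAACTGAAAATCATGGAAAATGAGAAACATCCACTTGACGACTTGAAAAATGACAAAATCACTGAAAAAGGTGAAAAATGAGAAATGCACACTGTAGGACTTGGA
Of the 300 bases, 299 were in such a stretch on chromosome 2 and 293 on chromosome 12. Both windows share an identical run of 29 bases, GGAAAATTTAGAAATGTCCACTGTAGGAC. Their G and C content was 33.3% and 34.3%, below that of the promoters above.

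The member closest to the NFI consensus is shown for comparison, with the match in capitals (mm9, plus strand). It lies at chr11:118062170-118062469 in an intron of Cyth1, which encodes a guanine nucleotide exchange factor for ARF GTPases.
Cyth1: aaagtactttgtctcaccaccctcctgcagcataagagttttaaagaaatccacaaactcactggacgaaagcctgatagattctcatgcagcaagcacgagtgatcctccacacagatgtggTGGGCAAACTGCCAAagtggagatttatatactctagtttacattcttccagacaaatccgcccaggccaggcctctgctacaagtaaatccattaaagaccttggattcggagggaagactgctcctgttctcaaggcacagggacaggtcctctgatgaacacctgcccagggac
The match differs from the palindrome at 1 of its 12 fixed positions. It was the only member with at most 1 mismatch.

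The library sizes were 4100449 input tags, 3350071 wild-type tags and 3132004 knock-out tags, or 0.481, 0.393 and 0.367 tags per 300 bp of sequenced genome. Levels are given as the fold over these averages, and ratios between libraries were scaled by the library sizes. The authors set a threshold of 5 tags in 300 bp when calling the sites, but most sites held fewer wild-type tags as counted here. Of all deposited sites, 88.6% had fewer than 5, and of the members 587 of 807 (72.7%). With every uniquely mapped tag counted these shares were 13.9% and 28.1%, and in 1000 bp 0.121% and 0.124%. The counting here thus differs from that of the site list, the reason was not tested, and all wild-type levels and ratios rest on the counting used here. Members had 5 to 543 input tags (median 8), 1 to 287 wild-type tags (median 4) and 0 to 291 knock-out tags (median 1). A window can hold at most 600 tags on both strands, so the highest input values lie close to this ceiling.

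Since input tags chose the members, their high input is the rule and not a result. At the threshold, 155 sites had 5 input tags and 373 had 4. Sites just inside were within 1 kb of a transcription start site (TSS) of a protein-coding gene in 54.2% of cases, with a median G and C content of 56.7%. Just outside, these values were 41.02% and 52.0%. H3K4me3-rich regions held 88.4% of the sites with 5 tags and 78.3% of those with 4.

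The members were most often promoters. Within 1 kb of a TSS lay 539 of 807 (66.8%, 63.4% to 70.04%) members, against 2743 of 39000 (7.03%, 6.78% to 7.29%) other sites. Of the members near a TSS, 52.7% (48.4% to 56.97%) lay within 150 bp of it, against 19.9% (18.4% to 21.4%) of the other sites near a TSS. The share near a TSS was 4.99% (4.702% to 5.29%) of sites with 0 input tags, 21.8% (19.4% to 24.3%) with 3 tags and 75.1% (68.6% to 80.9%) with 7 to 9 tags. It was lower, at 45.1% (31.1% to 59.7%), among the 51 members with 20 or more.

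**Figure D1:**
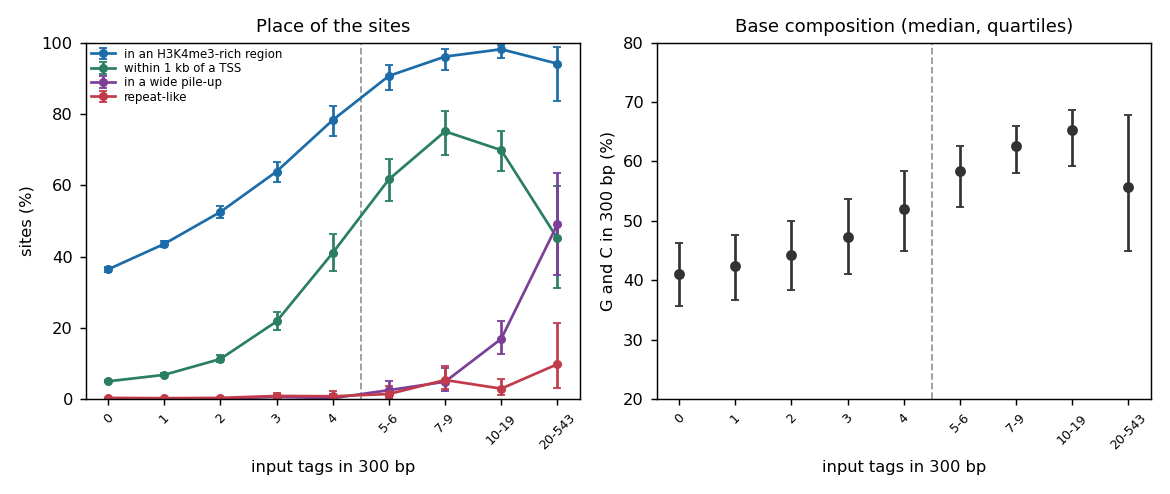
Deposited NFI sites by their input tags in 300 bp (horizontal axis). Left, percent of sites within 1 kb of a TSS, in H3K4me3-rich regions, in wide pile-ups and in repeat-like places, with exact 95% intervals. Right, median G and C percent with quartiles. Members lie to the right of the dashed line. Median G and C content rises up to 10 to 19 tags, and wide pile-ups make up 49.02% of the sites with 20 or more.

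High input was also common at promoters without regard to NFI sites. Of 8849641 consecutive windows of 300 bp across the genome, 0.354% had 5 or more input tags, whereas 30.8% (30.5% to 31.1%) of the 69963 windows centred on a protein-coding TSS did. The latter used every distinct transcript start of 22367 genes, so windows of the same gene can overlap and share tags. Genes with many annotated starts weigh more, and the interval treats the windows as separate. NFI sites within 150 bp of a TSS met the rule in 34.2% (30.99% to 37.6%) of cases, and those over 1 kb away in 0.734% (0.649% to 0.827%).

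Members were rich in G and C. The median content in 300 bp was 62.3% (quartiles 54.3% and 66.3%) in members and 42.0% (quartiles 36.3% and 47.7%) in other sites. Over 1000 bp it was 57.7% and 41.8%. Members were 0.229% of sites with 30 to 40% G and C, 0.633% at 40 to 50%, 2.95% at 50 to 60% and 50.7% (47.2% to 54.2%) at 60 to 70%. Of the 76 sites with 70 to 80%, 75 were members. Windows that were CpG-island-like, with at least 50% G and C and 0.6 or more of the CpG number expected from their bases, made up 63.8% (60.4% to 67.1%) of members and 1.38% (1.27% to 1.50%) of other sites.

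At 60 to 70% G and C, 62.1% (57.9% to 66.2%) of the sites within 1 kb of a TSS were members, against 27.2% (21.9% to 33.03%) of those farther away. In this range, members held a median of 25 CpG dinucleotides in 300 bp and other sites 14. Their median G and C content was 65.0% and 61.7%, so the bin does not fully equalise it.

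After the values had been seen, the members were divided into 4 classes. Wide pile-ups, 88 members, had at least 5 times the genome average from 500 to 5000 bp away in both the input and the knock-out ChIP. Narrow pile-ups were 16 others with 10 or more knock-out tags in 300 bp. Of the rest, 521 within 1 kb of a TSS are called promoter members, and 182 are the remaining members. Near a TSS there were also 17 wide pile-ups and 1 narrow pile-up.

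**Figure D2:**
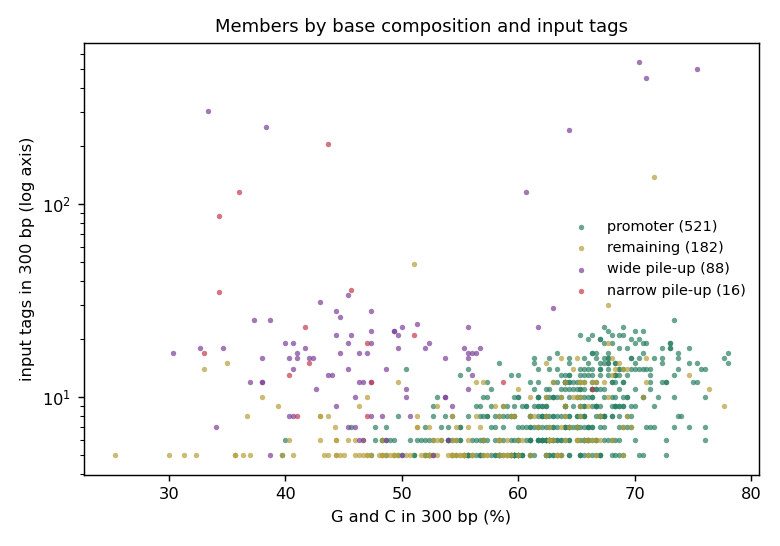
The 807 members by G and C percent in 300 bp (horizontal axis) and input tags in 300 bp (vertical log axis), coloured by class with the number of members in brackets. Promoter members have a median of 64.3% G and C and up to 25 input tags, and wide pile-ups have a median of 46.7% G and C.

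Promoter members had 5 to 25 input tags (median 8), 1 to 9 wild-type tags (median 3) and 0 to 9 knock-out tags (median 1). They held a median of 24 CpG dinucleotides in 300 bp, against 6 at the other NFI sites within 1 kb of a TSS. The median G and C content of those other sites was 49.3%. None of the 521 windows was repeat-like, which means that at least 50% of its 24-mers occur elsewhere in the genome. An assembly gap lay within 100 kb of 1.54%.

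The promoter members with the most input tags belonged to genes of varied function. Ctps, which makes CTP from UTP, had 25 input, 2 wild-type and 4 knock-out tags. Hagh, an enzyme that breaks down a glutathione adduct of methylglyoxal, has a site shared with the start of Fahd1, where the tags numbered 23, 3 and 1 in the same order. Input exceeded both ChIP libraries at these promoters, which were picked for their high input, so nothing is read from this. The site at 9130023H24Rik had 23, 3 and 2 tags. The tags at Cep72, which encodes a centrosomal protein, numbered 22, 5 and 4. Ubac2 had 22, 5 and 3 tags, and Pim3, a serine/threonine kinase, had 22, 3 and 2. The Ctps site lay 453 bp from its TSS, and the other 5 were closer.

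TSS of genes on both strands lay within 1 kb of 16.7% (13.6% to 20.2%) of promoter members and of 7.22% (6.28% to 8.25%) of the other promoter sites. Of the 3180 protein-coding gene symbols with an NFI site within 1 kb, 609 (19.2%) had a member there. Among ribosomal protein genes, 5 of 23 had one, a share of 21.7% (7.46% to 43.7%) whose interval includes that over all genes. Rpl24 had 8 input, 2 wild-type and 2 knock-out tags. In this order, Rpl36 had 6, 5 and 2, Rpl17 6, 3 and 2 and Rpl7a 5, 3 and 0. Knock-out tags were at most 2 at these 4 promoters.

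Among immediate early genes, 2 of 6 had a member, the transcription factor genes Atf3 and Klf4. Atf3 had 9 input, 6 wild-type and 7 knock-out tags, and Klf4 had 7, 3 and 0. Of 8 fibroblast and matrix genes with a site, 1 had a member, Cyr61, a secreted matricellular protein, with 7, 6 and 1 tags. Housekeeping genes had 2 of 7, namely Eef2, a translation elongation factor, with 12, 6 and 10 tags, and Tpt1 with 13, 3 and 1. Eef2 was the narrow pile-up near a TSS. Among Hox genes, which pattern the body axis, 2 of 6 had a member, Hoxa5 with 7, 4 and 2 tags and Hoxa7 with 5, 4 and 0. Splicing factors had 2 of 7, Hnrnpu with 7, 3 and 1 and Hnrnpf with 7, 4 and 2 tags. The intervals of these 5 shares all included the 19.2% over all genes.

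Zinc finger genes had 6 of 58, a share of 10.3% (3.89% to 21.2%), and its interval also included the 19.2% over all genes. Among them Zfp664, which shares its site with Ccdc92, had 17 input, 3 wild-type and 2 knock-out tags. Zfp568 had 16, 3 and 1 tags, Zfp623 14, 5 and 2, Zfp606 12, 4 and 1 and Zfp37 11, 3 and 2. No member lay at the 11 replication-dependent histone genes, 21 olfactory receptor genes, 2 proteasome genes and 1 NFI gene with a site within 1 kb. The upper limit of the share was 16.1% for olfactory receptor genes, below the 19.2% over all genes, and 28.5% or more for the other lists.

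Nearly all promoter members lay in H3K4me3-rich regions. The paper took its histone methylation data from an earlier study of mouse embryonic fibroblasts, so the marks were not measured alongside these libraries. The authors' boundary files define 15846 H3K4me3-rich regions with a median length of 16547 bp. They hold 16938 of the 39807 NFI sites, so the overlap is coarse. Inside one were 765 of 807 (94.8%, 93.03% to 96.2%) members, against 41.5% (40.98% to 41.96%) of the other sites. It was 520 of 521 promoter members and 81.2% (79.7% to 82.7%) of the other promoter sites. The exception was the promoter of Sfrp5, a secreted antagonist of Wnt signalling, which was named after its value was seen. Away from a TSS, 84.7% (79.8% to 88.8%) of members and 38.5% (37.96% to 38.96%) of other sites were inside. Within 60 to 70% G and C the shares were 98.8% (97.1% to 99.6%) and 83.2% (79.1% to 86.8%).

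Members were also often in regions rich in H3K27me3, a mark of Polycomb repression, with 85.9% (83.3% to 88.2%) against 53.8% (53.3% to 54.3%) of other sites. These regions are longer still, with a median of 38813 bp, and total 1032 Mb, so this overlap is coarse too. Both marks were assigned to 83.4% of members and 27.2% of other sites. A site inside regions of both kinds need not carry both marks itself. Regions rich in H3K36me3, which marks transcribed gene bodies, held 69.9% (66.6% to 73.04%) of members and 34.7% (34.2% to 35.2%) of other sites. Their median length of 46327 bp makes this overlap coarse as well. Lamina domains, which lie at the nuclear edge and hold few active genes, contained 8.43% (6.603% to 10.6%) of members and 32.8% (32.4% to 33.3%) of other sites. Members lay near a TSS far more often than other sites, and the shares in this paragraph were not matched for that.

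The input at promoter members was raised beyond the 300 bp that the rule used. It was 19.7 times the genome average within 100 bp of the centre, 13.9 times at 200 to 300 bp, 8.95 times at 400 to 500 bp and 1.37 times at 4 to 5 kb. It fell below 2 times by 1400 bp. The wild-type ChIP was 9.48 times the average within 100 bp and 1.46 times at 400 to 500 bp. In the knock-out ChIP the values were 3.86 and 2.42 times. At the other promoter sites, which held fewer than 5 input tags by the rule, the input was 2.23 times the average at the centre and 4.37 times at 400 to 500 bp. The wild-type ChIP fell below 2 times by 400 bp at promoter members and other promoter sites alike. It was used to call the sites in windows of 300 bp, so nothing is read from its narrower stretch.

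**Figure D3:**
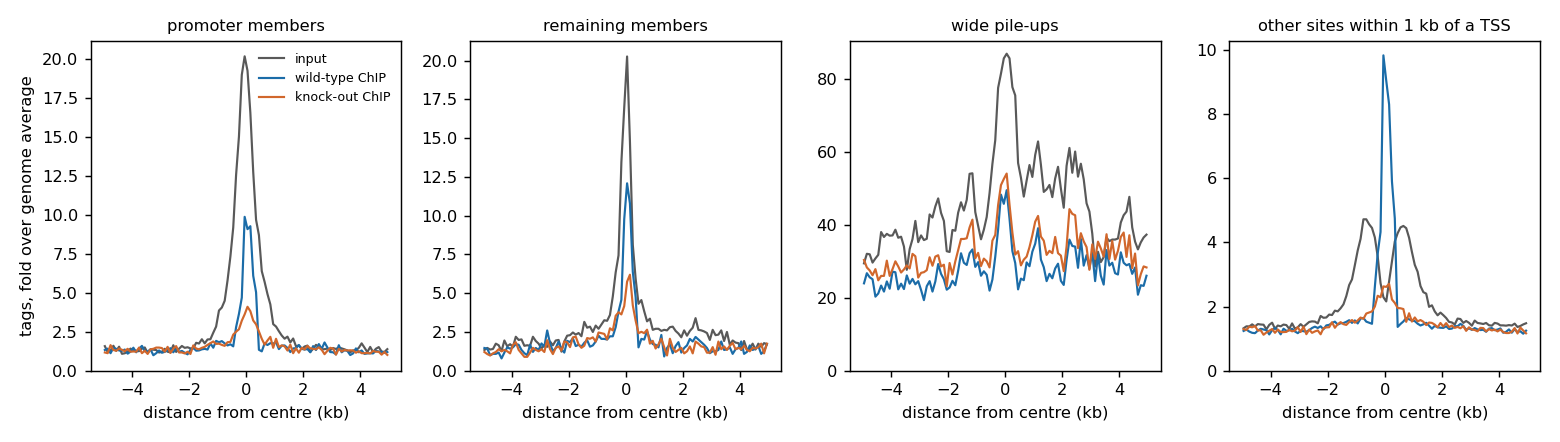
Tags in bins of 100 bp, as fold over the genome average of each library (vertical axis, from 0, with a scale of its own in each panel), against distance from the site centre in kb. Lines are the input, the wild-type ChIP and the knock-out ChIP. Input at promoter members, which the rule chose for their high input, reaches 19.7 times within 100 bp, above both ChIP libraries. Wide pile-ups, chosen in part by their flanks, stay raised in all 3 libraries up to 5 kb away.

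The knock-out ChIP was not used to call the sites or to choose the members. Within 300 bp of promoter members it reached 3.83 times (3.56 to 4.12) the genome average, against 2.58 times (2.48 to 2.68) at the other promoter sites. At 60 to 70% G and C the values were 3.97 times (3.62 to 4.34) and 3.41 times (3.001 to 3.85), with overlapping intervals. Members with 10 or more knock-out tags had been placed in the pile-up classes, whereas the other promoter sites were not trimmed in this way. From 500 to 5000 bp away, the knock-out ChIP was 1.402 times the average at promoter members and 1.37 times at other promoter sites. The wild-type ChIP, which was used to call the sites, was 8.63 times (8.24 to 9.05) and 8.404 times (8.23 to 8.58) the average in 300 bp. Of the promoter members, 8 had 7 or more knock-out tags. The share over all deposited sites is not given for this threshold, so nothing is read from the count. One of the 8 was at Alas1, the first enzyme of haem synthesis, with 19 input, 4 wild-type and 9 knock-out tags. It was named after its values were seen.

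Promoter members held G and C rich motifs more often than other promoter sites. GGGCGG, the core of the SP1 motif, occurred on either strand in 62.4% (58.1% to 66.6%) of promoter member windows and in 15.4% (14.1% to 16.8%) of the other promoter windows. CCGGAAG, an ETS family core, occurred in 16.1% (13.1% to 19.6%) and 4.63% (3.87% to 5.48%). At 60 to 70% G and C, GGGCGG was found in 64.95% (59.5% to 70.1%) and 49.3% (42.2% to 56.4%). TATAAA was found in 5.18% (3.44% to 7.45%) of promoter members and 14.4% (13.1% to 15.7%) of other promoter sites. The shares of CCGGAAG and TATAAA are not given within this range, so they are not matched for G and C content. CCAAT was found in 31.1% (27.1% to 35.3%) and 34.2% (32.4% to 35.97%), and TTGGCA, 1 arm of the NFI palindrome, in 14.6% (11.7% to 17.9%) and 16.95% (15.6% to 18.4%). CCAAT and TTGGCA shares had overlapping intervals. These motifs can overlap one another, and a match of letters is not a bound site.

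The full palindrome is TTGGCA and its reverse complement at a distance of 3 bases. Allowing up to 2 mismatches over its 12 fixed bases, it was present in 15 members (1.86%, 1.04% to 3.05%) and in 3.04% (2.87% to 3.21%) of other sites. At 60 to 70% G and C it was present in 1.73% (0.699% to 3.54%) and 4.58% (2.74% to 7.14%). The Cyth1 site printed above had 5 input, 9 wild-type and 0 knock-out tags, so wild-type tags exceeded both other libraries. Near matches with 2 mismatches are shown with the matching bases in capitals for a site in an intron of Nfic itself (chr10:80879871-80879885), a site in an intron of Hjurp (chr1:90173758-90173772) and the promoter of Adora2b, an adenosine receptor (chr11:62062408-62062422).
Nfic: TTcGCAggcTGCCAg
Hjurp: cTGGCccagTGCCAA
Adora2b: cTGGCAgccgGCCAA
The Nfic site had 7 input, 3 wild-type and 1 knock-out tags. Adora2b had 9, 2 and 0 in this order. Hjurp, whose product deposits the centromeric histone CENP-A, had 29, 12 and 11. Over all 15 members with a match, Cyth1 included, wild-type tags were more numerous than input tags at 4, fewer at 10 and equal at 1. After scaling by library size, wild-type tags were above the input at 6 of the 15. They were below the input at 708 of all 807 members and at 3.39% of all deposited sites. The rule used the input, so nothing is read from these tallies. The Nfic and Adora2b sites were chosen after their values were seen.

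The 182 remaining members lay more than 1 kb from a protein-coding TSS. They had 5 to 139 input tags (median 6), 1 to 11 wild-type tags (median 3) and 0 to 9 knock-out tags (median 1). Between genes lay 94 of them, in introns 57 and in coding exons 18, and 23 were within 1 kb of the TSS of an annotated gene of another kind. Their median G and C content was 57.0%, and 38.5% (31.4% to 45.9%) were CpG-island-like. H3K4me3-rich regions held 80.8% (74.3% to 86.2%), and 35 of the 42 members outside these regions belonged to this class. The highest input was at chr17:36368395-36368410, 24892 bp from the TSS of Rpp21, with 139 input, 6 wild-type and 8 knock-out tags at 71.7% G and C. A site in an intron of Il1rapl1 followed with 49, 7 and 2 tags. Input dominated at both, but they were picked for their high input, so nothing is read from this. They were named after their values were seen.

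The 88 wide pile-ups had 5 to 543 input tags (median 17), 3 to 287 wild-type tags (median 13) and 0 to 291 knock-out tags (median 13). From 500 to 5000 bp away, the input was 42.2 times the genome average, the knock-out ChIP 31.7 times and the wild-type ChIP 26.98 times, and the first pair of these values chose the class. Without the 4 members beside AY036118, the input was 28.2 times the average there, and without the chromosome 11 cluster 73.3 times. Among other sites, 20 of 39000 met the same criterion. The wide pile-ups had a median of 3 CpG dinucleotides in 300 bp. Within 100 kb of an assembly gap lay 75 of 88 (85.2%, 76.1% to 91.9%), against 1.08% (0.977% to 1.18%) of other sites. Since 65 of the 88 belong to 1 cluster beside a gap, the members are not independent, and outside it 10 of 23 (43.5%, 23.2% to 65.5%) lay as near. Of the input tags at wide pile-ups, 38.4% carried a mismatch to the assembly, against 11.5% at promoter members.

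A cluster on chromosome 11 held 66 members in 75742 bp (chr11:3023743-3099484), 65 of them wide pile-ups, and 69 of all deposited NFI sites. It covers Sfi1, which encodes a centrosomal protein that binds centrin, Drg1, and the pseudogenes Pisd-ps1 and Fau-ps2. Its nearest member to a gap lay 23751 bp away. Input tags ranged from 5 to 115 (median 17), wild-type tags from 5 to 27 (median 14) and knock-out tags from 2 to 29 (median 14). The 3 libraries were close to each other over the cluster, with a wild-type ChIP of 0.9195 times the input (0.842 to 1.004) and a knock-out ChIP of 1.03 times (0.943 to 1.12). The site with the most input, 168 bp from a Sfi1 start, had 115 input, 17 wild-type and 24 knock-out tags. The next highest input in the cluster was 34 tags.

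**Figure D4:**
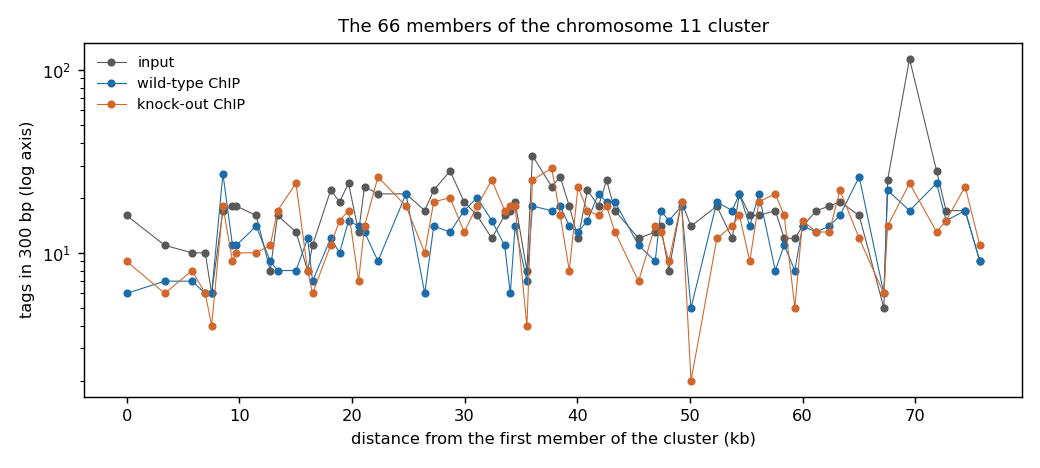
Tags in 300 bp (vertical log axis) at the 66 members of the chromosome 11 cluster, by distance in kb from its first member. Points joined by lines are the input, the wild-type ChIP and the knock-out ChIP. The libraries run close together along most of the cluster, and 1 site has 115 input tags.

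The 5 members with the highest wild-type over input ratio among those with 10 or more wild-type tags all came from this cluster. The highest ratio was 2.29, from 8 input, 15 wild-type and 9 knock-out tags in an intron of Sfi1. Another Sfi1 site, 282 bp from a start, had 16, 26 and 12 tags and a ratio of 1.99. A Sfi1 coding exon site had 17, 27 and 18 tags and a ratio of 1.94. These sites were selected on their wild-type tags, so nothing is read from their lower knock-out tags. The other two had ratios of 1.84 and 1.73.

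The members with the most input tags of all were on chromosome 17 beside AY036118. Its 4 members lay within 4894 bp and had 243 to 543 input tags, 19 to 38 wild-type tags and 33 to 42 knock-out tags. The highest had 543 input, 26 wild-type and 42 knock-out tags, and the next pair had 499, 23 and 42 and 451, 19 and 33. Here the wild-type ChIP was 0.0747 times the input (0.0608 to 0.09096) and the knock-out ChIP 0.115 times (0.0972 to 0.136). Input tags lay close to the ceiling of 600 at the highest sites, which limits the input value in these ratios. When every read was counted, the highest site had 1840 input, 35 wild-type and 75 knock-out reads. None of its 24-mers occurred elsewhere in the assembly, so the measure of repeats did not mark it.

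Near Gm10801 on chromosome 2, the site printed above had 305 input, 287 wild-type and 291 knock-out tags, and its neighbour had 251, 193 and 201. The libraries were close to each other there after scaling, with a knock-out ChIP of 1.25 and 1.05 times the input. Without the limit of 1 tag per position, the first site held 81343 input, 51021 wild-type and 58063 knock-out reads, and its wild-type ChIP was 0.347 times the input. The ratio thus fell when every read was counted. With so many reads per position, the limit of 1 tag per position caps all 3 counts, so nothing is read from their closeness. Smaller groups of wide pile-ups were found at Hjurp and Heatr7b1 on chromosome 1 (5 members), beside Pisd-ps2 on chromosome 17 (3 members) and at the start of chromosome 18 (5 members). Their highest input values were 29, 23 and 31 tags.

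The 16 narrow pile-ups had low flanks, at 2.63 times the average in the input, 2.38 times for the wild-type and 1.88 times for the knock-out ChIP. In the central 300 bp these were 82.8, 83.7 and 90.5 times. Between genes lay 11 of the 16. A site in an intron of Cdk5rap2, which encodes a centrosomal protein, had 204 input, 181 wild-type and 190 knock-out tags. The site printed from chromosome 12 had 87, 69 and 74, and a site 372900 bp from the TSS of Kcnh5 had 116, 78 and 77. At these sites the scaled knock-out ChIP was 1.22, 1.11 and 0.869 times the input. They were named after their values were seen.

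Repeat-like places held 28 of 807 (3.47%, 2.32% to 4.98%) members and 0.344% (0.288% to 0.407%) of the other sites. By class these were 13 wide pile-ups, 6 narrow pile-ups, 9 remaining members and 0 promoter members. At wide pile-ups, 17.7% of the input tags had a near match elsewhere in the genome by the authors' mapping, and without the 2 Gm10801 sites the share was 7.58%. It was 53.5% at narrow pile-ups and 1.396% at promoter members.

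Over all 807 members, the wild-type ChIP was 0.526 times (0.508 to 0.545) the input and the knock-out ChIP 0.401 times (0.386 to 0.417), against 6.13 times (6.05 to 6.21) and 1.43 times (1.404 to 1.45) at the other sites. Scaled wild-type tags were below the input at 708 of 807 members, where 3.39% of all deposited sites were, and knock-out tags at 727, where 31.0% of all sites were. Wild-type tags reached at least 2 times the input at 3 members, against 87.3% of all sites. The rule used the input, so nothing is read from these ratios and counts.

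The wild-type ChIP was 0.444 times (0.4203 to 0.469) the input at promoter members, 0.555 times (0.507 to 0.607) at remaining members, 0.539 times (0.508 to 0.571) at wide pile-ups and 1.01 times (0.899 to 1.14) at narrow pile-ups. For the knock-out ChIP, promoter members had 0.197 times (0.182 to 0.213), remaining members 0.274 times (0.242 to 0.309), wide pile-ups 0.607 times (0.573 to 0.643) and narrow pile-ups 1.09 times (0.973 to 1.23). The values of wide pile-ups rested on the 4 members beside AY036118. Without them, the wild-type ChIP was 0.955 times (0.893 to 1.02) the input and the knock-out ChIP 1.05 times (0.9799 to 1.12). Without the chromosome 11 cluster instead, they were 0.355 times (0.327 to 0.386) and 0.405 times (0.373 to 0.4397). Both sets keep the Gm10801 sites, where the limit of 1 tag per position caps the counts. A few sites with many tags, such as that at Cdk5rap2, weigh heavily on the narrow pile-ups. At 28 of the 521 promoter members the scaled wild-type ChIP was above the input. Only 3.39% of all deposited sites were below the input, so most sites were not below it. The rule used the input, so nothing is read from these counts or from the ratios to input by class. From 500 to 5000 bp away, which the rule did not use, the wild-type ChIP was 0.720 times (0.701 to 0.7396) the input at promoter members and 0.688 times (0.6802 to 0.696) at other promoter sites.

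**Figure D5:**
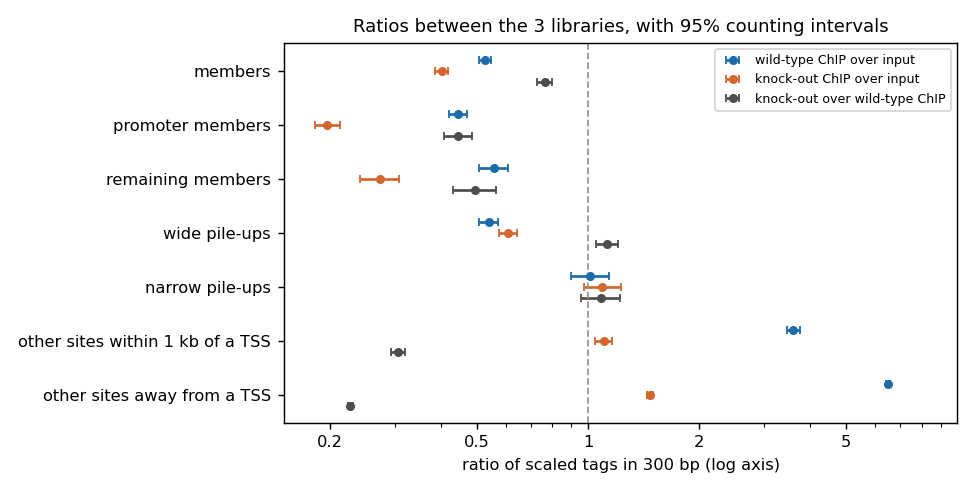
Ratios of scaled tags in 300 bp (horizontal log axis) for the members, their 4 classes and the other deposited sites, with 95% counting intervals. Both ChIP libraries are below the input (dashed line at 1) at promoter and remaining members, which the rule chose for their high input. The low values of wide pile-ups rest on 4 members beside AY036118, without which they are 0.955 and 1.05 (not plotted). The knock-out to wild-type ratio is 0.444 at promoter members and 1.13 at wide pile-ups.

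The knock-out ChIP was 0.763 times (0.729 to 0.798) the wild-type ChIP over all members and 0.233 times (0.230 to 0.236) at the other sites, all of which were called on the wild-type ChIP. It was 0.444 times (0.407 to 0.484) at promoter members, 0.493 times (0.431 to 0.563) at remaining members, 1.13 times (1.05 to 1.21) at wide pile-ups and 1.08 times (0.957 to 1.22) at narrow pile-ups. Knock-out tags were used to set the pile-up classes, so the values by class are a description. Scaled knock-out tags exceeded wild-type tags at 187 of 807 members, and 7.83% of all deposited sites met this. At 75 of 807 members there were 10 or more knock-out tags, and 0.291% of all deposited sites had as many. Among members with 8 or more wild-type tags, the ratio turned to 1.07.

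The input reads fell into 2 groups by the first 2 fields of their names, called runs here. Whether they are sequencing runs or channels of a flow cell was not checked. Both come from the same library, and the second was used as a readout that did not choose the sites. At the 441 sites with 5 or more tags in the first run, the second run was 50.4 times the genome average, with a median of 6 tags. Of these sites, 3 had no tag in it. The site with the most input tags alone held 430 of their 4946 second-run tags, so this mean rests in part on pile-ups. At the 39366 other sites the second run was 1.47 times the average. The runs share 1 library, so they give no measure of the spread between libraries.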

How the data were processed

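NFI ChIP and input DNA of mouse embryonic fibroblasts were sequenced by the authors in 3 libraries. The authors mapped the reads with ELAND to mm9, and the deposited lines give a match code, a place, a strand and mismatches for every read, without normalization. Counts, percent values and fold ratios were computed here from these deposited files. The authors deposited the NFI sites made with ChIP-peak (window 300 bp, vicinity 300 bp, threshold 5 tags, at most 1 tag per position, repeat filter on) and boundary files of histone methylation and lamina domains, from which regions were rebuilt.

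The reference, NCBI build 37, is the same build as mm9. The aligned part of a read is its first 32 bases, so the 5′ end of reverse reads was placed 31 bp beyond the stored position. Reads with a single best place on an assembled autosome, X or Y were kept, once per position and strand. The input gave 4100449 of them, the wild-type ChIP 3350071 and the knock-out ChIP 3132004. TSS came from transcripts of protein-coding genes in GENCODE vM1. Shares have exact (Clopper-Pearson) binomial intervals, levels exact Poisson intervals and ratios exact conditional binomial intervals, all for counting error only, because PCR reads are not independent molecules. No test was made with 1 library per condition.

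Members, gene lists and the naming rule were chosen with earlier results of these data known. Named were the 5 members with the most input tags, the 10 members within 1 kb of a TSS with the most input tags that were not repeat-like, the 5 with 10 or more wild-type tags and the highest ratio to input, NFI palindromes with at most 1 mismatch, and members at listed genes, with at most 5 per list. A member at 1 listed gene is not reported here. Of the 10, those at Sfi1 and Hjurp were in wide pile-ups. Alternatives covered the threshold, counting of tags, mismatches, shift, input run, windows and definitions of promoter, region and repeat. Counting was tested on simulated tags. Tags were counted with Numba 0.67.0 and pandas 2.3.3 under Python 3.11.15, intervals came from SciPy 1.17.1 with NumPy 2.4.6, and plots were drawn in matplotlib 3.10.9. The miRNA lists were not used, and no repeat annotation of mm9 was used here.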

Additional observations from a re-analysis of the deposited data

How the results depend on the processing

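Results are given in the order number of sites, share within 1 kb of a TSS, median G and C content, share in H3K4me3-rich regions, share in repeat-like places, wild-type ChIP over input, knock-out ChIP over input and knock-out over wild-type ChIP. Of the values under alternatives, 31 stayed within the main value's interval (the quartiles for G and C content, 1.5 times for the number), 51 moved and 1 reversed. With 3 or more input tags there were 2300 sites, and the values were 40.7%, 52.3%, 77.0%, 1.78%, 0.759 and, for knock-out over wild-type ChIP, 0.543. With 10 or more, 323 sites remained, with 97.5% in H3K4me3-rich regions and ratios of 0.460, 0.432 and 0.940. Counting every uniquely mapped tag gave 1339 sites, 50.9% near a TSS, 84.0% in H3K4me3-rich regions and ratios of 0.357, 0.343 and 0.959. Tags without mismatch gave 71.4% near a TSS, 96.7% in H3K4me3-rich regions, 2.29% repeat-like places and ratios over input of 0.408 and 0.318. Sites from the first input run numbered 441, with 96.4% in H3K4me3-rich regions and, with the input level from the other run, ratios of 0.380, 0.338 and 0.890. A shift of 75 bp moved no value. The promoter share was 56.6% for 5 kb upstream and 70.6% for a TSS of any annotated gene. Repeat-like places were 7.81% with 1 in 4 of the 24-mers and 0.867% with 36-mers. In 1000 bp, wild-type ChIP over input was 0.465 and knock-out over wild-type ChIP 0.875. Without repeat-like sites the ratios were 0.488, 0.351 and 0.719. Without the 10 members with the most input tags, wild-type ChIP over input was 0.583 and knock-out over wild-type ChIP 0.670. With 8 or more wild-type tags the ratios over input were 0.622 and 0.664, and knock-out over wild-type ChIP reversed to 1.07. The cause of these changes was not tested. 3 further alternatives were chosen after seeing the data. Without the wide pile-ups, 72.6% lay near a TSS, knock-out ChIP over input was 0.295 and knock-out over wild-type ChIP 0.567. With 1 member per locus, the values were 73.3% near a TSS, 1.83% repeat-like places and ratios of 0.504, 0.314 and 0.624. Without the chromosome 17 locus beside AY036118, the ratios over input were 0.613 and 0.457. Input tags chose the members in these alternatives, so a ratio over input below 1 is no sign of stability. No paired analysis was possible because each condition has 1 library and no result comes from a test. For the same reason no library could be left out.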

Other observations

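Wild-type ChIP tags at promoter members carried mismatches to the assembly more often than those at other promoter sites. Of the wild-type tags at promoter members, 40.3% (38.0% to 42.6%) had a mismatch, against 25.9% (24.99% to 26.8%) at other promoter sites. For knock-out tags the shares were 28.5% (25.3% to 31.9%) and 21.99% (20.4% to 23.6%). Input tags had 11.5% (10.6% to 12.4%) and 12.9% (11.7% to 14.1%). In the whole libraries, 17.3% of wild-type, 20.5% of knock-out and 16.1% of input reads had a mismatch. The whole-library shares count every uniquely mapped read rather than distinct tags, so they are not a like baseline. The part of mismatched tags in the ChIP values at promoter members was not tested.

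Reads per distinct tag at promoter members were 1.22 in the input, and 1.83 and 2.299 in the wild-type and knock-out ChIP. The library averages were 1.32, 2.92 and 3.45. Wide pile-ups had 25.9, 36.01 and 39.4, and without the 2 Gm10801 sites 2.24, 2.502 and 3.20. The high values of the class thus rested on those sites.

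Members were unevenly spread over chromosomes. Chromosome 11 had 130 members, 6.22% (5.22% to 7.34%) of its NFI sites, of which 66 lay in the cluster around Sfi1. The shares on the other chromosomes with members ran from 0.931% on X to 2.65% on chromosome 7.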
